A study of Mus musculus with 6 samples.

Results

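The nuclei described here are thyrotropin-releasing hormone (TRH) neurons of mouse hypothalamus that also carry a SIM transcription factor. They were chosen by their counts: a nucleus was taken when it held at least 1 UMI (a counted transcript molecule) of Trh, at least 1 UMI of Sim1 and Sim2 together, and at least 1 UMI of Slc17a6. In all, 95 of 34542 nuclei met this rule, 41 of 11405 in the pool of diet-induced-obese (DIO) mice, 18 of 12284 in the OB pool and 36 of 10853 in the chow pool. Because Trh, Sim1, Sim2 and Slc17a6 chose the nuclei, their levels in these nuclei are given as a description and carry no test.

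The series sorted nuclei positive for the neuronal protein NeuN and captured them on the 10x Genomics 3' v3 platform. Mice of the DIO pool were obese from their diet, which the labels also call hfd. Mice of the OB pool were ob/ob, a genotype without functional leptin, on chow, and mice of the last pool ate chow with no mutation named. Within each pool, rapamycin-treated mice, whose mTORC1 kinase complex the drug inhibits, carried 1 hashtag and vehicle-treated mice another. Dose, duration, age, strain background and the number of mice behind a hashtag are not given in the sources used here, so each hashtag of a pool is 1 sample. The 2 hashtags carry these barcodes, shown because every treatment label below rests on them:
rapamycin hashtag (tag 1): ttcctgccattacta
vehicle hashtag (tag 2): ccgtacctcattgtt

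TRH is made as a large precursor that the convertases PCSK1 and PCSK2 cut, and in the paraventricular nucleus its neurons drive thyrotropin release from the pituitary. SIM1 is a transcription factor needed to form the paraventricular nucleus, SIM2 is its close relative and contributes to TRH neurons there, and SLC17A6 loads glutamate into synaptic vesicles. TRH neurons of the paraventricular nucleus are known for repression of Trh by thyroid hormone and for stimulation by leptin and melanocortins. In the mm10 build (GRCm38.p6), Trh (ENSMUSG00000005892) lies at chr6:92242061-92244650, Sim1 (ENSMUSG00000019913) at chr10:50894698-50989156, Sim2 (ENSMUSG00000062713) at chr16:94085104-94127032 and Slc17a6 (ENSMUSG00000030500) at chr7:51621830-51671126. These are the spans of whole genes, and 3' counting does not resolve exons.

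The pools differed in depth, with a median of 5572 UMIs per nucleus in DIO, 2804.5 in OB and 5826 in chow. The DIO and chow pools shared 31 cell barcodes, the OB and chow pools 38, and the OB and DIO pools 33. Of the 95 members, 12 carried both hashtags and were set aside as doublets, a share of 12.6% (exact 95% interval 6.70 to 21.0), against 4.67% of all nuclei. In nuclei with Slc17a6 and Sim1 or Sim2 but no Trh it was 8.17% (7.10 to 9.33). In nuclei with Slc17a6 and Trh but neither SIM gene it was 10.8% (3.03 to 25.4). Both values lie inside the interval of the members. Doublets within 1 hashtag cannot be seen in this way. Of the 83 members left, 79 had a hashtag, and 4 had none. Members numbered 25 with rapamycin and 10 with vehicle in DIO, 6 and 7 in OB, and 18 and 13 in chow. They were deeper than comparable nuclei: their median was 8046 UMIs, against 6653 UMIs in nuclei with Slc17a6 and Sim1 or Sim2 but no Trh.

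Trh was sparse in the members. It had 1 UMI in 71 of the 95 nuclei and more in 24, with at most 7 and 136 UMIs in all. Sim1 was found in all but 3 members, at a median of 2 UMIs and at most 11. Sim2 was found in 17 members, 14 of them together with Sim1 and 3 without it, and in DIO, OB and chow these numbered 7, 1 and 9. Slc17a6 had 1 UMI in 52 members and at most 7. For 16 members every part of the rule was met by exactly 1 UMI, for 86 at least 1 part was, and 9 members stood above that in each part. Just outside the rule, 92 nuclei had Trh and a SIM gene but no Slc17a6, 37 had Trh and Slc17a6 but no SIM gene, and 2400 had Slc17a6 and a SIM gene but no Trh.

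The share of nuclei with a Trh UMI, as a description of the rule's own genes, was compared between kinds of nuclei. Without hashtag doublets, 83 of 2287 Slc17a6 nuclei with Sim1 or Sim2 held a Trh UMI, a share of 3.63% (2.90 to 4.48) at a median of 6470 UMIs. The share was 0.575% (0.396 to 0.806) in Slc17a6 nuclei without either SIM gene at a median of 5921.5 UMIs. In inhibitory nuclei with Slc32a1 and no Slc17a6 it was 0.0719% (1 of 1391) at a median of 5674 UMIs, and 2.16% of them had a SIM gene. In oligodendrocyte nuclei the Trh share was 0.202% (1 of 496) at 1801.5 UMIs. Whether the inhibitory nuclei make no Trh of their own was not tested. After each nucleus was thinned to 2000 UMIs, and 24 and 116 shallower nuclei were left out of the groups with and without a SIM gene, the share was 1.77% (1.27 to 2.40) with a SIM gene and 0.267% (0.149 to 0.439) without one. No thinned inhibitory nucleus kept a Trh UMI (0 of 1360, which allows up to 0.221% by a limit of 3 counts). Intervals and limits of this kind cover counting error over pooled nuclei, and nuclei are not replicates.

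The members sat in a small part of the glutamatergic cells. All 8031 Slc17a6 nuclei that were no hashtag doublet were clustered without the 4 rule genes, and 79 of the 83 members fell into 3 of 37 clusters. Clusters are called by number and by their leading genes, the ones most raised over all other clusters. Cluster 7 held 35 members among 323 nuclei and was led by Meis1, Sall3, Ebf2 and Gpc5. Cluster 22 held 24 members among 162 nuclei and was led by Nostrin, Wdr95, Asic4 and Onecut3. Cluster 2 held 20 members among 566 nuclei and was led by Zic1, Ebf1, Npas3 and Zfp521. The other 4 members were spread over 3 further clusters.

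Counting any nucleus with a Trh UMI, 11.8% of cluster 7, 16.0% of cluster 22 and 4.59% of cluster 2 held Trh. Together these clusters stood at 8.56% (90 of 1051, 6.94 to 10.4), while the other 34 clusters stood at 0.372% (26 of 6980), with at most 1.91% in any of them and none in 19. The 3 clusters were picked because they held members, so these shares describe that choice. Sim2, seen in 9.13% of the 3 clusters and 0.645% of the others, was unevenly spread too, with 15.2% in cluster 7, 22.8% in cluster 22 and 1.77% in cluster 2. Not every cluster rich in SIM genes held Trh. In the cluster led by Avp, the vasopressin gene, 93.8% of nuclei had a SIM gene and 0 of 177 had a Trh UMI, which allows a share of nuclei with a UMI of up to 1.69% by 3 counts (exact upper bound 2.06%). In the cluster led by Oxt, the oxytocin gene, 95.7% had a SIM gene and 0 of 47 had a Trh UMI, which allows up to 6.38% (exact upper bound 7.55%).

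**Figure D1:**
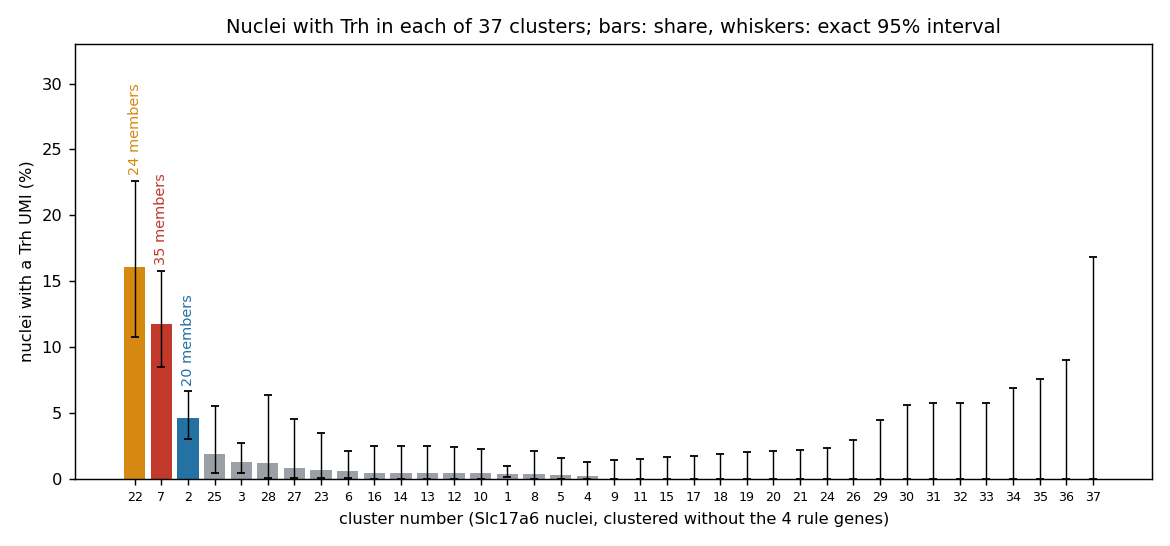
Percent of nuclei with a Trh UMI (vertical axis) in each of the 37 clusters of Slc17a6 nuclei (horizontal axis, cluster number), with exact 95% intervals as whiskers. Clusters 22, 7 and 2, in colour and with their number of members, stand at 16.0%, 11.8% and 4.59%, and all grey clusters at 1.91% or less.

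Members of the 3 clusters differed in the genes they shared with Trh. Sall3, a zinc-finger transcription factor, had a UMI in 65.7% of members in cluster 7, 16.7% in cluster 22 and 10% in cluster 2. Sim2 was seen in 22.9% and 20.8% of members in clusters 7 and 22 and in 0 of 20 in cluster 2. Trhde, which encodes the ectoenzyme that degrades TRH, ran the other way, with 11.4% in cluster 7, 70.8% in cluster 22 and 75% in cluster 2. Ebf1, a transcription factor of the early B-cell factor family, was in 17.1%, 41.7% and 75% of members in the same order. Sulf1, an extracellular enzyme that removes sulfate from heparan sulfate, was in 85.7%, 33.3% and 15%, and Spon1, a secreted matrix protein, in 74.3%, 25% and 10%. The TRH receptor gene Trhr was in 0 of 35 members of cluster 7, 37.5% of cluster 22 and 5% of cluster 2. Thyroid hormone receptor beta, Thrb, was in 71.4%, 16.7% and 55%. Median depth was 8944, 5967.5 and 7336 UMIs in the same order. Clusters were made from all these genes except the 4 rule genes, so the contrasts describe the clusters and are no tests.

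**Figure D2:**
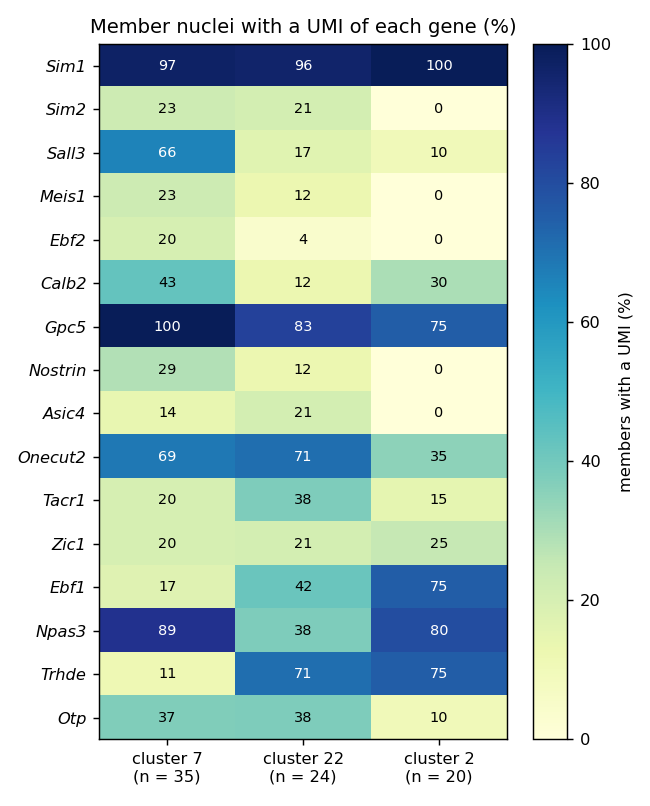
Percent of member nuclei with a UMI of each gene (rows, given in every cell and by colour) in clusters 7, 22 and 2 (columns). Sall3 runs at 65.7%, 16.7% and 10%, while Trhde runs at 11.4%, 70.8% and 75%.

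The label was set against marker genes. The 4 neuronal markers (Rbfox3, Snap25, Syt1 and Celf4) summed to 3410 to 4643 CPM (a gene's UMIs scaled to the summed UMIs of a sample's nuclei of that kind) over the 6 hashtag samples. Of the paraventricular markers, Arnt2, the partner of SIM1, was in 56.6% of members and Otp, a transcription factor of that nucleus, in 30.1%, against 59.9% and 11.3% of SIM nuclei without Trh. Pou3f2 was in 4.82% of members and 15.4% of SIM nuclei without Trh. Crh, the corticotropin-releasing hormone gene, had no UMI in 83 members, Avp had 2 UMIs and Oxt was in 3.61% of them. Sall3 was in 34.9% of members and 11.1% of SIM nuclei without Trh. The tissue was whole hypothalamus, and the position of a nucleus within it was not recorded.

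Markers of other cells summed to less than the neuronal markers in every sample but were not all absent, and several of their genes were at 0. Summed over the sample, oligodendrocyte markers stood at 27.5 to 158 CPM in members and 37.1 to 80.3 CPM in SIM nuclei without Trh. Mog, Mag and Cldn11 were at 0 in members, while the other 3 genes of that list held 32 UMIs. Astrocyte markers stood at 13.7 to 102 and 49.8 to 91.2 CPM, mostly from Slc1a2, with Gja1 and Slc1a3 at 0 in members. Microglia markers stood at 79.2 to 204 and 101 to 162 CPM, mostly from P2ry12, which had a UMI in 50.6% of members and 46.1% of SIM nuclei without Trh, while C1qa and Tmem119 were at 0 in members. Endothelial markers reached 20.6 and 9.15 CPM at most, with Cldn5 at 0 in members. Of 16 transmitter genes other than Slc17a6, 10 had a UMI in members, with 77 UMIs in all. Their sum was 117 CPM, against 134 CPM in SIM nuclei without Trh. Chat, Dbh, Tph2, Slc6a3, Slc17a8 and Slc18a3 were at 0.

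Among the genes of hormone production, all 13 of the list were detected in members. Pcsk2, the convertase, was in 92.8% of members and Pam, which amidates the end of TRH, in 90.4%. Pcsk1 was in 20.5%, Cpe, which trims the cut ends, in 68.7%, and Qpct, which closes the first residue of TRH into its ring, in 18.1%. Among input genes, the insulin receptor Insr was in 55.4%, the leptin receptor Lepr in 8.43% (7 of 83), and the melanocortin receptor Mc4r and the leptin feedback gene Socs3 in none of 83. The thyroid hormone receptors Thrb and Thra stood at 154 and 71.6 CPM over all members, and the deiodinases Dio2 and Dio3 had no UMI. Of 33 further peptide genes, 23 had a UMI in members. Nucb2, the precursor of nesfatin, was in 26.5%, Tac1, the substance P gene, in 22.9%, and Bdnf, a neurotrophin, in 18.1%, while Vip, Npy, Cck, Grp, Pdyn and Tac2 had none. Agrp was in 19.3% of members and in 31.0% of SIM nuclei without Trh, and its summed level was 30.5 against 55.1 CPM.

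Members were set against the other nuclei with Slc17a6 and a SIM gene but no Trh, on UMIs summed per hashtag sample (6 sums of members, 6 of the others, hashtag sample as block). The matrix genes Sulf1 and Spon1 and the transcription factor gene Sall3 led the higher genes, and Avp, Nfib and Foxp2 led the lower ones. By edgeR's quasi-likelihood test with Benjamini-Hochberg adjustment, 124 of 5774 genes were higher in members (2.15%) and 132 were lower (2.29%). In DESeq2 these numbered 99 and 104. The labels do not say whether hashtags stand for separate mice, so p-values measure only the spread between these samples, which may be technical. Most members sat in clusters 7, 22 and 2, as did 609 of 2204 SIM nuclei without Trh (27.6%), so the comparison also sets these clusters against others.

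Sulf1 ranged from 154 CPM through a median of 197 to 354 CPM in the 6 samples of members, against 40.7, 58.7 and 91.2 CPM in SIM nuclei without Trh. Every sample of members lay above every sample of the others, a log2 fold change of 1.90 ± 0.18 (SE, adjusted p = 6.9e-11). Spon1 ranged over 99.4, 159 and 221 CPM in members and 40.3, 53.8 and 86.9 CPM in the others, again without overlap (1.79 ± 0.21, adjusted p = 1.15e-08). Vwc2l, a secreted antagonist of bone morphogenetic proteins, ranged over 370, 756 and 863 CPM in members and 194, 201 and 301 CPM in the others (1.57 ± 0.14, adjusted p = 1.15e-11). Its relative Vwc2 was higher as well, by 1.30. Gpc5, a heparan sulfate proteoglycan of the cell surface, was higher in 5 of 6 samples at 1000 to 5854 CPM in members and 777 to 1236 CPM in the others, and the exception was OB vehicle. Lmo3, a LIM-domain cofactor of transcription, was higher by 1.61, Man1a, a mannosidase of the Golgi, by 1.55, and Osbpl3, an oxysterol-binding protein relative, by 1.56. Stac, Pmfbp1 and Arhgef28 complete the 12 highest named genes, at 1.27 to 1.59. Stac lost its call without the chow pool (1.52, adjusted p = 0.0523). With members held to at least 2 Trh UMIs, Sulf1 (1.14, adjusted p = 0.202), Gpc5 (0.91, adjusted p = 0.0938), Stac (1.61, adjusted p = 0.185) and Sall3 (1.63, adjusted p = 0.147) were not called.

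Avp had 2 UMIs in all members and 1259 UMIs in SIM nuclei without Trh, a log2 ratio of CPM of -4.74 (-7.78 to -2.88). Foxp2, a forkhead transcription factor, had 5 UMIs against 3059 (-4.69, -6.32 to -3.47), and Nfib, a nuclear factor I gene, 1 UMI against 637 (-4.75, -10.1 to -2.27). The CPM values of members and the others did not overlap for these 3 genes. In the OB sums of members a count of 0 allows up to 119 CPM with rapamycin and 61.2 CPM with vehicle by 3 counts. The others ranged from 31.8 to 61.0 CPM for Nfib and from 49.8 CPM up for Avp, so in OB a 0 cannot show non-overlap of these 2 genes. Fam19a1, which encodes a small secreted chemokine-like protein, ranged over 20.4, 83.8 and 198 CPM in members and 550, 753 and 835 CPM in the others. Its log2 fold change was -2.91 ± 0.20 (adjusted p = 9.36e-15), and members lay below the others in each sample. Chrm3, the M3 muscarinic acetylcholine receptor, ranged over 0, 43.2 and 99.6 CPM in members and 267, 322 and 378 CPM in the others (-2.52 ± 0.23, adjusted p = 6.44e-11). Stxbp6 (-3.13), the kainate receptor subunit Grik3 (-2.73), the zinc-finger repressor Zeb2 (-2.52), Rgs6 (-2.48), the semaphorin Sema6d (-2.44), Dscaml1 (-2.44) and Cpne9 (-2.36) were lower too.

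**Figure D3:**
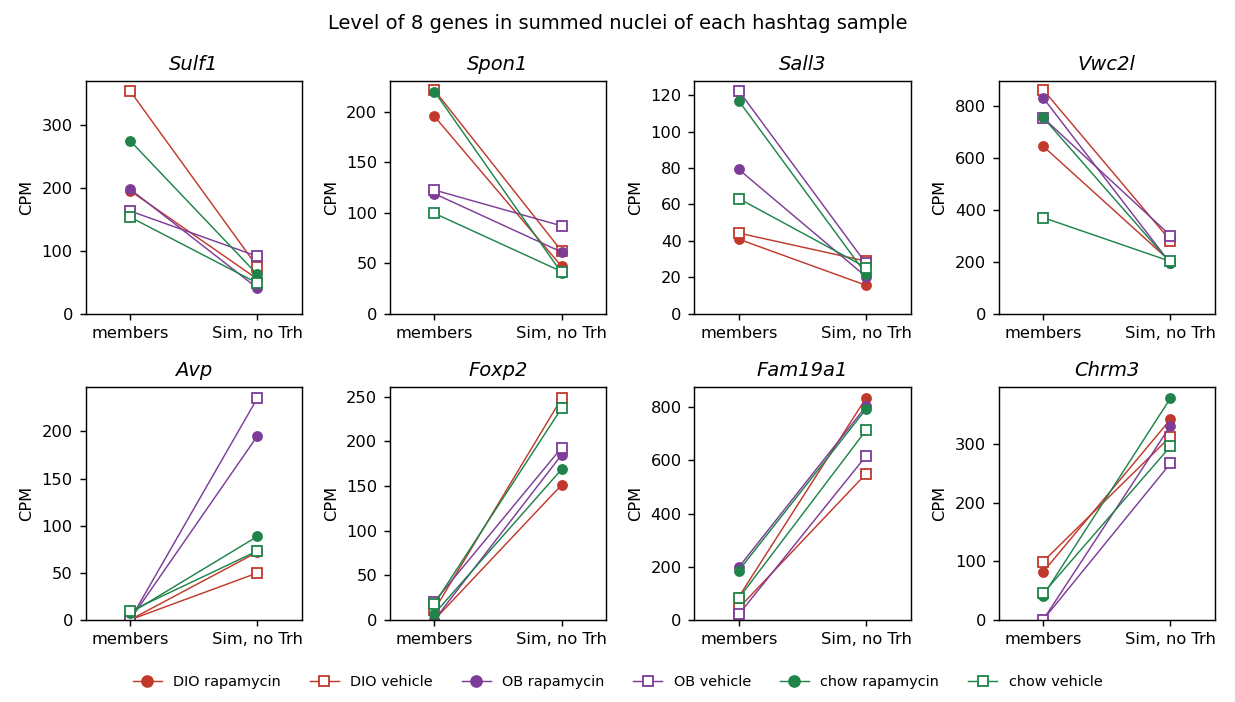
CPM (vertical axes) of 8 genes in members, drawn left, and in SIM nuclei without Trh, drawn right, with 1 point per hashtag sample, 6 of each. Sulf1, Spon1, Sall3 and Vwc2l lie higher in members and Avp, Foxp2, Fam19a1 and Chrm3 lower. The drawn points of members and the others do not overlap for any of the 8 genes. These genes were picked among the called ones, so this describes the choice, and the share of all tested genes without overlap is not given. For Avp a 0 in the OB sums of members cannot show non-overlap.

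Of 42 transcription factor genes of hypothalamic cell types, 10 could be tested; 4 were higher in members and 2 were lower, where 2.15% and 2.29% of all genes tested were. The median log2 fold change of the 10 was 0.01, against 0.00 over all genes tested. The list, which holds Sall3, was chosen with earlier results of these data known, so its counts of called genes are no test of the list. Sall3 ranged over 40.9, 71.2 and 122 CPM in members and 15.6, 23.5 and 28.8 CPM in the others, without overlap (1.67 ± 0.29, adjusted p = 5.45e-05). It lost its call without the chow pool (1.37, adjusted p = 0.0574). Onecut2 was higher by 1.18 ± 0.21 (adjusted p = 6.56e-05) and lost its call without the DIO pool (0.84, adjusted p = 0.237). Otp was higher by 1.19 ± 0.36 at an adjusted p of 0.0461, which DESeq2 did not call (adjusted p = 0.151), nor did edgeR without the chow pool (0.76, adjusted p = 0.768) or without the OB pool (0.96, adjusted p = 0.264). Ebf1 was higher by 0.92 ± 0.19 (adjusted p = 0.000975), also not called by DESeq2 (adjusted p = 0.0629) or without the chow pool (0.63, adjusted p = 0.283). Besides Foxp2, Tcf4 was lower, by 1.31 on the log2 scale (adjusted p = 2.8e-06).

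Of 13 genes of hormone processing, 10 were tested and 1 was called, where 2.15% of all genes tested were higher and 2.29% lower. Pcsk2 ranged over 755, 864 and 1064 CPM in members and 519, 574 and 651 CPM in the others, without overlap. Its log2 fold change was 0.61 ± 0.13 (adjusted p = 0.000798), and the call was lost without the chow pool (adjusted p = 0.1), without the DIO pool (adjusted p = 0.172) and with no filter on low counts (0.39, adjusted p = 0.224). Of 4 peptide genes tested, Avp was lower, and Agrp, at -1.02, missed the threshold (adjusted p = 0.0666). The single tested gene of TRH reception and breakdown, Trhde, stood at 0.32 (adjusted p = 0.578). None was called among 6 genes of thyroid hormone feedback (median -0.12), 9 of leptin and melanocortin input (median 0.00), 4 steroid receptors (median 0.36), 15 of the mTORC1 pathway (median 0.05) or 18 ribosomal protein genes (median 0.19). With so few genes per list, these counts of called genes do not set a list apart from all genes.

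The same comparison was then made inside clusters 7, 22 and 2, pooled over the 3. Here 14 of 3910 genes were higher in members (0.358%) and 26 were lower (0.665%). Both comparisons share members and part of the other nuclei. The cluster mix still differed: cluster 2 held 25.3% of the 75 members and 49.0% of the 580 other nuclei in this fit, cluster 7 held 46.7% and 31.7%, and cluster 22 held 28% and 19.3%. Spon1 was higher by 1.49 ± 0.23 and Sulf1 by 1.19 ± 0.18 (adjusted p = 0.000141 for each). Fam19a1 was lower by 2.28 ± 0.25 on the log2 scale (adjusted p = 6.41e-07) and Chrm3 by 1.65 ± 0.25 (adjusted p = 0.000141). Further genes called higher included Ghr, the growth hormone receptor, at 0.77, Cacng2, an auxiliary subunit of AMPA receptors, at 0.77, the transcription factors Zfpm2 and Dach1 at 0.92 and 0.87, and Unc13b, a priming factor of synaptic vesicles, at 0.94. St8sia1, Rnf150, Tmcc3, Cdh4 and Tmeff2 were higher by 0.62 to 0.90. Among the lower genes were Sema6d (-1.55), the transcription factor Ebf2 (-1.48), the neuregulin receptor Erbb4 (-1.29), the serotonin receptor Htr2c (-1.03), the splicing factor Rbfox1 (-0.95) and the co-repressor Runx1t1 (-1.26). Cpne4, Cntnap5a, Sdk1 and Chsy3 ranged from -1.39 to -0.94.

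Several genes called in the wider comparison were not called inside these clusters. Sall3 stood at 0.50 (adjusted p = 0.736), Lmo3 at 0.69 (adjusted p = 0.14), Vwc2l at 0.57 (adjusted p = 0.091), Gpc5 at 0.50 (adjusted p = 0.3), Onecut2 at 0.34 (adjusted p = 0.787), Pcsk2 at 0.38 (adjusted p = 0.217) and Tcf4 at -0.18 (adjusted p = 0.962). Ebf1 turned to -0.51 (adjusted p = 0.417).

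Taken cluster by cluster over all pools, with counting intervals and no test, the genes did not follow a single pattern. Fam19a1 was lower in members of each cluster, with log2 ratios of -1.82 (-2.98 to -0.86) in cluster 7, -2.02 (-3.17 to -1.06) in cluster 22 and -1.79 (-2.71 to -1.01) in cluster 2. Htr2c and Sema6d were likewise lower in all 3, at -0.89, -1.20 and -0.85 and at -1.41, -1.41 and -1.76 in the same order. Sulf1 had 398 CPM in members and 185 CPM in the other nuclei of cluster 7 (1.11, 0.80 to 1.41), but -0.26 (-1.28 to 0.62) in cluster 22 and -0.66 (-2.31 to 0.61) in cluster 2. Spon1 was higher in clusters 7 and 22, at 1.01 (0.65 to 1.37) and 2.08 (1.04 to 3.09), and stood at -0.11 (-1.77 to 1.18) in cluster 2. Chrm3 was lower in clusters 7 and 22, at -3.02 (-4.66 to -1.78) and -2.59 (-4.49 to -1.20), and stood at -0.47 (-1.06 to 0.07) in cluster 2. Erbb4 stood at -0.93, 0.53 and -0.51, turning sign in cluster 22. Ebf1 had 40.4 CPM in members and 435 CPM in the other nuclei of cluster 7 (-3.43, -4.35 to -2.65), against 0.70 in cluster 22 and 0.49 in cluster 2. Sall3 stood at 0.13 (-0.45 to 0.66) in cluster 7, -0.64 (-1.90 to 0.42) in cluster 22 and 0.63 (-2.53 to 2.71; 2 member UMIs) in cluster 2. Each of its intervals crosses 0.

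**Figure D4:**
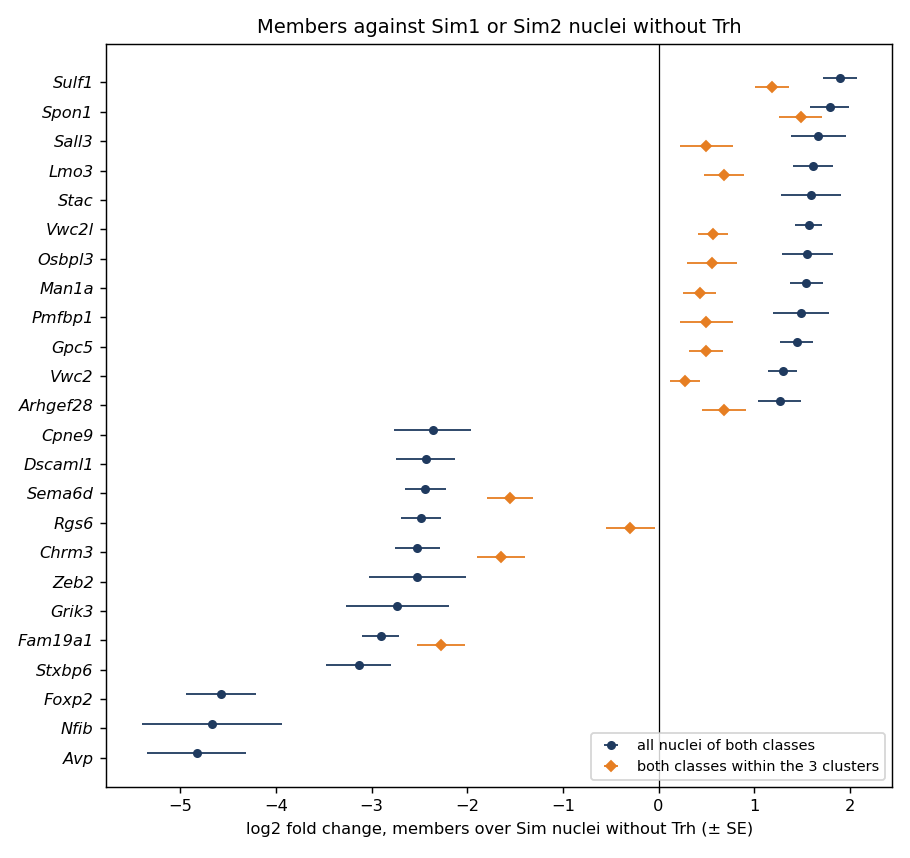
Log2 fold change, members over SIM nuclei without Trh (horizontal axis, whiskers of 1 SE), for the 24 named genes (rows), over all nuclei and within clusters 7, 22 and 2 by colour. Sulf1 and Spon1 stay above 1 in both, whereas Sall3, Vwc2l and Gpc5 lie at 0.50 to 0.57 within the clusters.

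Against Trh nuclei with Slc17a6 but no SIM gene, members differed in few genes at the depth of 31 such nuclei (10 sums, OB vehicle having none). Of 1313 genes tested, 3 were higher in members (0.228%) and 1 was lower (0.0762%), and DESeq2 called 3 and 3. Gpc5 was higher by 2.21 ± 0.38 (adjusted p = 0.00718). Dcc, the netrin receptor, ranged over 2204, 2538 and 3723 CPM in members and 705, 1217 and 1377 CPM in Trh nuclei without a SIM gene, a log2 fold change of 1.42 ± 0.25 (adjusted p = 0.00718). The other higher gene was a numbered gene model. Fam19a1 was lower at 20.4 to 198 CPM in members, against 203, 638 and 1498 CPM in Trh nuclei without a SIM gene (-2.51 ± 0.29, adjusted p = 0.000164). The ranges of members given here cover 6 samples and those of the others 5, since they include the OB vehicle members that the fit left out. Without the chow pool or without the DIO pool no gene was called, and Gpc5 then stood at 1.42 (adjusted p = 0.464) and 3.10 (adjusted p = 0.0560).

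Members with Sim2 were also compared with members without it. None of 536 genes was called higher (0%) or lower (0%) by edgeR, with 15 and 16 at an unadjusted p under 0.05, and DESeq2 also called 0 (10 and 12 unadjusted). The smallest p belonged to Cntn4, an axonal adhesion gene, at -1.48 ± 0.30 (adjusted p = 0.158). Erbb4 and Ebf1, both seen in fewer members of cluster 7 than of cluster 2, stood at -2.28 and -2.33 (adjusted p = 0.336 for each).

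The share of members among Slc17a6 nuclei was taken per hashtag. In DIO it was 1.45% with rapamycin (25 of 1728, 0.938 to 2.13) and 0.702% with vehicle (10 of 1425, 0.337 to 1.29). In OB it was 0.686% with rapamycin (6 of 875, 0.252 to 1.49) and 1.99% with vehicle (7 of 352, 0.803 to 4.05). In chow it was 1.17% with rapamycin (18 of 1534, 0.697 to 1.85) and 0.820% with vehicle (13 of 1585, 0.437 to 1.40). The share was higher with rapamycin in DIO and chow and lower in OB, and the intervals overlap within every pool. In the OB pool 3731 of 12284 nuclei had no hashtag call, against 406 in DIO and 191 in chow, and calling hashtags by their ratio instead brought the OB vehicle share to 1.28%. With at least 2 Trh UMIs the OB order turned, at 0.343% with rapamycin (3 of 875) and 0 of 352 with vehicle. With 1 hashtag per treatment and pool, none of these differences has a test.

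Trh itself, as a description, stood at 136 CPM with rapamycin and 144 CPM with vehicle in DIO members. In OB members it stood at 515 CPM with rapamycin (13 UMIs in 6 nuclei) and 143 CPM with vehicle. In chow members it stood at 213 and 154 CPM. Each member holds at least 1 Trh UMI by rule, so shallow nuclei give a high CPM, and the OB rapamycin sum had 25248 UMIs against 49008 with vehicle.

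Across the pools, rapamycin was compared with vehicle in members with pool as a block. None of 2029 genes was called higher (0%) or lower (0%) by edgeR, with 32 and 37 at an unadjusted p under 0.05; DESeq2 called 0 too, with 2 and 8 unadjusted. The 3 smallest p-values belonged to Nxph1, a neurexin ligand (-1.66 ± 0.41), Pde7b, a phosphodiesterase (-1.37 ± 0.34), and Arhgap6 (-1.73 ± 0.43), all at an adjusted p of 0.661. Without the DIO pool, 2 genes were higher and 7 lower. Of 35 genes of the mTORC1 pathway, the target of rapamycin, 7 could be tested, 1 lay above 0 and 6 below, at a median of -0.28 against -0.01 over all genes, and none was called. Neuronal markers summed to 3768 CPM with rapamycin and 4227 CPM with vehicle in DIO, and to 3410 and 4643 CPM in chow. In OB the order was the other way, at 3961 and 3897 CPM. The part of these markers in the comparison was not tested.

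Within a pool the members of both hashtags give ratios with counting intervals only. Nuclei differ from each other beyond counting error, so the intervals are too narrow for a difference between treatments. The median log2 ratio of rapamycin over vehicle was -0.01 over 1055 genes in DIO, -0.10 over 168 genes in OB and 0.02 over 852 genes in chow. Il1rapl2, a synaptic adhesion gene, had 682 CPM with rapamycin and 88.5 CPM with vehicle in DIO members, a log2 ratio of 2.95 (1.93 to 4.18). In chow members it had 454 CPM with rapamycin and 81.3 CPM with vehicle, a ratio of 2.48 (1.47 to 3.67), which turned to -2.11 (-5.58 to 0.69; 2 against 4 UMIs) in members with at least 2 Trh UMIs. In DIO that setting gave 2.11 (0.45 to 4.45), and thinned nuclei gave 1.64 (0.30 to 3.34). OB members held 0 and 2 UMIs of it.

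Other genes at the ends of the DIO ratios were Ebf1 (1.97, 0.85 to 3.34), Adarb2 (1.90, 0.96 to 3.01), of the RNA-editing deaminase family, and Ptprn, Lcorl and Caln1 (1.39 to 1.63). Lcorl stood at 0.10 (-0.69 to 0.94) with hashtags called by tag ratio, and Ebf1 at 0.69 (-0.90 to 2.71) with at least 2 Trh UMIs. The lowest were the transcription factor Sox5 (-1.90, -2.49 to -1.33) and Dach1, Luzp2, Cacna2d3, Lrfn2 and Pde7b (-1.77 to -1.28). In OB the highest were Erbb4 (2.44, 1.56 to 3.40) and Npas3, Gria2, Dgkb, Gpc5 and Lingo2 (0.96 to 1.88). Among the lowest there were Trpm3, a cation channel gene (-1.42, -2.56 to -0.43), and Lrrc4c, Rere, Unc13c and Galntl6 (-1.37 to -1.14). In thinned OB members Dgkb stood at 0.22 (-1.39 to 1.84) and Galntl6 at 0.13, and Trpm3 was at -0.51 (-1.31 to 0.24) with hashtags by tag ratio. In chow the highest besides Il1rapl2 were Thsd7b (2.73, 1.78 to 3.84) and Kcnc2, Zfpm2, Ghr and Rnf150 (1.67 to 1.86). The lowest there were Adarb2 (-2.50, -3.35 to -1.72) and Col25a1, Psd3, Rbfox1, Dgkb and Ryr3 (-2.15 to -1.45). With at least 2 Trh UMIs, Col25a1 stood at -0.53, Rbfox1 at -0.23, Ryr3 at 0.26 and Zfpm2 at 0.72, each with an interval across 0. Adarb2 thus had a high ratio in DIO and a low one in chow.

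The cluster mix of members also differed between hashtags. Cluster 2 held 9 of 25 rapamycin and 2 of 10 vehicle members in DIO, 1 of 6 and 2 of 7 in OB, and 1 of 18 and 4 of 13 in chow. Ebf1 and Erbb4 have their highest shares of members in cluster 2. The part of the cluster mix in the ratios was not tested.

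To gain depth, all Slc17a6 nuclei of clusters 7, 22 and 2 were compared in the same way, with or without Trh (222 and 238 nuclei with rapamycin and vehicle in DIO, 90 and 65 in OB, 193 and 185 in chow). Of 10814 genes, 2 were higher with rapamycin (0.0185%) and none was lower (0%) by edgeR, with 236 and 222 at an unadjusted p under 0.05. DESeq2 called none, with 14 and 27 unadjusted. Il1rapl2 had 463 CPM with rapamycin and 313 CPM with vehicle in DIO, 373 and 257 CPM in OB, and 548 and 281 CPM in chow. Its log2 fold change was 0.70 ± 0.11 (adjusted p = 0.000187 by edgeR, 0.168 by DESeq2), and it was higher in 3 of 3 pools. Fam19a1 had 303 CPM with rapamycin and 186 CPM with vehicle in DIO, 236 and 93.4 CPM in OB, and 321 and 221 CPM in chow. Its log2 fold change was 0.71 ± 0.11 (adjusted p = 0.000194 by edgeR, 0.168 by DESeq2), also in 3 of 3 pools, and it was not called in thinned nuclei (0.50, adjusted p = 0.72). The OB ratios depended on how hashtags were called. By tag ratio the OB log2 ratio of Il1rapl2 was 0.22 (-0.11 to 0.55), against 0.54 in the main calls. That of Fam19a1 was 0.33 (-0.12 to 0.77), against 1.34. Over the 3 pools edgeR still called both by tag ratio (0.63, adjusted p = 0.000379, and 0.53, adjusted p = 0.0156). Without the chow pool, 10 genes were higher and 20 lower. The cluster mix of these nuclei differed by hashtag: cluster 2 held 126 of 222 rapamycin and 106 of 238 vehicle nuclei in DIO, 60 of 90 and 26 of 65 in OB, and 104 of 193 and 116 of 185 in chow. Fam19a1 had 448 CPM in cluster 2 and 81.2 CPM in cluster 7 with rapamycin in DIO.

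Trh chose these clusters, so its values are read as a description. It stayed in the edgeR fit over the 3 clusters, at 1.12 ± 0.30, and was not called, an outcome that is not read as a test. It had 20.8 CPM with rapamycin and 7.06 CPM with vehicle in DIO, 41.1 and 20.4 CPM in OB, and 22.5 and 13.0 CPM in chow. By pool the log2 ratio was 1.56 (0.62 to 2.58) in DIO, 1.01 (-0.35 to 2.53) in OB and 0.79 (-0.08 to 1.71) in chow. The share of nuclei with a Trh UMI was 12.6% with rapamycin and 4.62% with vehicle in DIO, 6.67% and 10.8% in OB, and 9.84% and 7.57% in chow, so in OB share and CPM went opposite ways. In nuclei thinned to 2000 UMIs the shares were 6.33% and 2.12% in DIO, 5.75% and 3.28% in OB, and 4.15% and 4.86% in chow.

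Split by cluster, Trh in cluster 7 had log2 ratios of 2.52 (1.01 to 4.32) in DIO, 2.97 (0.65 to 6.25) in OB and 0.91 (-0.40 to 2.40) in chow. In cluster 22 they were 0.30, 1.46 and 1.48, each with an interval across 0. In cluster 2 they were 1.52 in DIO, -2.11 in OB and -1.03 in chow, with intervals across 0 as well. Il1rapl2 stood at -0.01 (-0.54 to 0.51) in cluster 22 of DIO and 2.55 (1.85 to 3.32) in cluster 22 of chow. In OB it stood at -0.01 (-0.56 to 0.56) in cluster 2 and 0.24 (-0.62 to 1.06) in cluster 7. In cluster 22 of OB it stood at 1.82 (0.84 to 2.90; 36 against 12 UMIs). Fam19a1 was below 0 in cluster 22 of DIO and OB (-0.38 and -0.64), with intervals across 0. Within cluster 2, Fam19a1 had ratios of 0.63 in DIO, 0.85 in OB and 0.60 in chow, each with an interval above 0. Sall3 stood at -0.66 ± 0.18 over the 3 clusters (adjusted p = 0.38). Within cluster 7 its ratios were -0.29 (-0.97 to 0.35) in DIO, 0.31 (-0.87 to 1.43) in OB and -0.94 (-1.52 to -0.36) in chow, where the pooled ratio of OB was -1.08. Of 71 ribosomal protein genes tested, 50 lay above 0, at a median of 0.15 against 0.00 over all genes, and of 30 mTORC1 genes 16 did, at a median of 0.04; none was called.

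**Figure D5:**
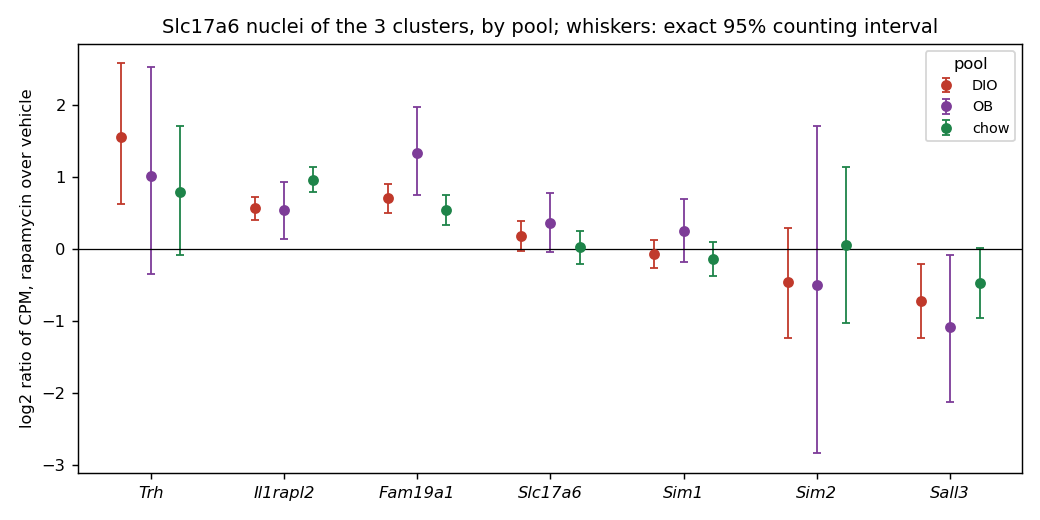
Log2 ratio of rapamycin over vehicle CPM (vertical axis, exact 95% counting intervals) in all Slc17a6 nuclei of clusters 7, 22 and 2, by gene (horizontal axis) and pool (colours). Il1rapl2 and Fam19a1 lie above 0 in all 3 pools, and the Trh intervals of OB and chow reach below 0.

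Vehicle members of the obese pools were set against those of the chow pool. Each pool is 1 library, so library and diet or genotype cannot be told apart, and no test was made. In DIO over chow the median log2 ratio was 0.02 over 628 genes. Gpc5 had 5854 CPM in DIO and 1924 CPM in chow (1.61, 1.37 to 1.84), and Luzp2 had 974 and 145 CPM (2.75, 1.97 to 3.62), or 946 and 447 CPM (1.08) with hashtags called by tag ratio. Cacna2d3, Cdh4 and Spock1 stood at 1.63 to 1.77, and Alk at 1.83. In thinned nuclei Alk stood at -0.04, Cacna2d3 at 0.79 (4 against 3 UMIs) and Spock1 at 3.84 (11 against 1 UMI). The lowest were Adarb2 (-2.57, -3.69 to -1.61), Ebf1 (-2.48, -3.87 to -1.33) and Col25a1, Dgkb, Trpm3 and Srsf7 (-2.17 to -1.32).

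In OB over chow the median was 0.03 over 453 genes. Ralyl, an RNA-binding protein gene, had 2081 CPM in OB and 352 CPM in chow (2.56, 2.02 to 3.13). Rorb, Robo1, Zfhx3, Cdh4 and Fgf12 stood at 1.28 to 2.22, but Rorb was at 0.06 (-1.87 to 1.79) in thinned nuclei. Adarb2 had 2 UMIs in OB and 73 in chow (-4.01, -7.09 to -2.11), or -2.74 with hashtags by tag ratio, and Erbb4 stood at -2.39 (-3.26 to -1.63). Fgf13, Dgkb and Hs6st3 ranged from -1.73 to -1.61, and Hs6st3 was at -0.78 in thinned nuclei. Both ratios share the chow members. Cluster 2 held 2 of 10 vehicle members in DIO, 2 of 7 in OB and 4 of 13 in chow, and its part in these ratios was not tested.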

How the data were processed

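Per the file headers, the authors deposited raw UMI counts per gene and barcode, with hashtag counts, from Cell Ranger 6.0.0 (DIO and chow) and 7.0.1 (OB). The submitters' processing notes name Cell Ranger 6.0.0 and mm10. Nuclei needed 500 UMIs, 300 genes and at most 5% mitochondrial UMIs, which removed 1 OB barcode. Hashtags were called with Seurat 5.3.0 (HTODemux, quantile 0.99) or, as an alternative, by a 2-fold tag ratio, and hashtag doublets were removed. The 27514 genes shared by the matrices were used. Slc17a6 nuclei were clustered without the rule genes (3000 variable genes, 40 principal components, 20 neighbours, leidenalg 0.10.2 at resolution 1, scikit-learn 1.9.0). Summed counts were tested with edgeR 4.0.16 (limma 3.58.1, R 4.3.3; TMM, filterByExpr, quasi-likelihood, adjusted p at most 0.05, SE as the size of the log2 fold change over the root of F), with DESeq2 1.42.0 as an alternative. The 4 rule genes were left out of every comparison except that over all nuclei of the 3 clusters. Other comparisons are ratios or shares with exact 95% intervals (Clopper-Pearson for shares, scipy 1.17.1, numpy 2.4.6, Python 3.11.15, matplotlib 3.10.9). A count of 0 was given a limit of 3 counts.

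The sums of members held 25248 to 220029 UMIs per hashtag sample. Alternatives were size factors, no filter on low counts, each pool left out, thinning to 2000 UMIs, hashtags by ratio, members with at least 2 Trh UMIs, and pool sums. Named genes are the 12 highest and 12 lowest log2 fold changes among called genes with at least 50 UMIs, the 6 highest and 6 lowest ratios of untested pairs with at least 50 UMIs, and list genes. Numbered gene models were counted and not named, and some genes that these rules pick are not reported here. Members and gene lists were chosen with earlier results of these data known, and the comparisons inside the 3 clusters, together or one by one, were added after seeing the data. The fits were tested on simulated data.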

Additional observations from a re-analysis of the deposited data

Results flagged for a closer look

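Among the genes named for members, Adarb2, Dgkb and Ebf1 were flagged for ratios of rapamycin over vehicle of opposite sign in different pools. Each pool gives 1 sample per treatment, and the difference between pools was not tested. Over all measured genes, 521 ratios lay above 0 and 534 below in DIO, 67 and 101 in OB, and 438 and 414 in chow. How many genes differ in sign between pools was not counted, so the sign alone does not set these genes apart. Adarb2 had a log2 ratio of 1.90 in DIO and -2.50 in chow. Dgkb, a diacylglycerol kinase gene, had 1.18 in OB and -1.60 in chow, and its OB ratio was 0.22 (-1.39 to 1.84; 8 against 8 UMIs) in thinned nuclei. Ebf1 had 1.97 in DIO and -0.98 in chow. Cluster 2, where Ebf1 was seen in 75% of members, held 9 of 25 rapamycin and 2 of 10 vehicle members in DIO, against 1 of 18 and 4 of 13 in chow, and its part in these ratios was not tested.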

How the results depend on the processing

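No paired analysis was possible because the labels give no replicate numbers, so none was added to the pool or hashtag blocks that the fits already hold. Counts of called genes moved with the setting, and the cause was not tested beyond the smaller number of genes tested in thinned nuclei (2161 for members against SIM nuclei without Trh). In that comparison 60 genes were higher and 86 lower in thinned nuclei, 16 were higher with at least 2 Trh UMIs, 14 were higher and 26 lower within the 3 clusters, 269 were lower with no filter, and 205 were lower with pool sums. Leaving out each pool gave 57 to 117 higher and 76 to 183 lower. Against Trh nuclei without a SIM gene, no filter gave 22 higher and 3 lower, DESeq2 and its size factors 3 lower each, pool sums 4 lower and thinning 0 lower, and leaving out each pool 0 to 4 in either direction. The fit with at least 2 Trh UMIs could not be made there. By Sim2, no filter gave 1 higher and 13 lower, and leaving out each pool 0 to 1 lower. For rapamycin in members, no filter gave 1 higher, and leaving out each pool 0 to 2 higher and 0 to 7 lower. For rapamycin in the 3 clusters, DESeq2 gave 0 higher, thinning 1 higher and no filter 1 lower, and leaving out each pool 2 to 10 higher and 0 to 20 lower.

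The share of members in thinned nuclei was 0.257% with rapamycin (2 members) and 0.168% with vehicle (1 member) in DIO. It was 0.427% (2 members) and 0.513% (1 member) in OB, and 0.880% (6 members) and 0.292% (2 members) in chow. Only the chow rapamycin share exceeded the limit of 3 counts. The 2 chow intervals overlap (0.324 to 1.90 and 0.0354 to 1.05). With at least 2 Trh UMIs, on at most 7 members per hashtag, the share was 0.289% and 0.140% in DIO and 0.456% and 0.126% in chow. In OB it was 0.343% and 0%, which left no ratio there. The median log2 ratio in DIO members was 0.11 with at least 2 Trh UMIs and 0.0402 in thinned nuclei, that in chow members -0.0702 in thinned nuclei, and that of OB over chow vehicle members 0.10 in thinned nuclei. Signs turned for Ebf1 in members against SIM nuclei without Trh (-0.42 with at least 2 Trh UMIs, -0.51 within the clusters), Cacna2d3 in DIO (1.25 with at least 2 Trh UMIs), Galntl6 in OB (0.13 thinned), Il1rapl2 and Ryr3 in chow (-2.11 and 0.26 with at least 2 Trh UMIs) and Alk in DIO over chow (-0.037 thinned). Over named genes and alternatives, members against SIM nuclei without Trh gave 218 values with the same call, 42 that lost it and 2 of opposite sign. Of the 95 members, 71 rest on 1 Trh UMI.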
